A study of Mus musculus with 5 samples.

Results

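The mature oligodendrocytes (MOLs) labelled MOL6a in the deposited annotation of single cells from the adult mouse corpus callosum are described here. Their members are the cells that carry this label and no other, which were 451 of 2853 cells, or 15.8%. The tissue was pooled from 2 mice at postnatal day 60 (P60). Both libraries come from mice with the Emx1::Cre allele and the reporter that the labels write as Sox10::Cre-GFP-STOP-TdTom. Cells of the oligodendrocyte (OL) lineage, which express Sox10, carry GFP, and those with a history of Emx1, a gene of the dorsal forebrain, carry TdTom in its place. TdTom+ cells are therefore of dorsal and GFP+ cells of ventral origin. Cells were sorted by reporter and captured as 1 library per origin, so no result below has a replicate and no test was possible between origins. The reporters mark the origin of a cell, and the labels give no treatment for these samples. The TdTom+ library held 300 MOL6a cells of 1901, a share of 15.8% with an exact 95% binomial (Clopper-Pearson) interval of 14.2 to 17.5%. The GFP+ library held 151 of 952, a share of 15.9% (13.6 to 18.3%). All intervals given here cover counting error alone.

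OLs wrap axons in myelin, the lipid-rich sheath that allows fast conduction and through which OLs also feed metabolites to the axon. They arise from oligodendrocyte precursor cells (OPCs), pass through committed precursors and newly formed OLs (COP/NFOL) and myelin-forming OLs (MFOL), and end as MOLs, which single-cell studies divide into numbered classes. The MOL5/6 class is marked by Ptgds, the lipocalin-type prostaglandin D synthase, a secreted protein that converts prostaglandin H2 into prostaglandin D2 and also carries small lipophilic molecules.

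MOL6a was 1 of 3 labels of this class in the annotation and made up 36.6% of its 1231 cells, the others being MOL6b with 430 cells and MOL4-5/6 with 350. Dorsal cells made up 66.5% of MOL6a and 66.6% of all cells, so the label was drawn from both libraries in nearly the proportion in which cells were captured. A MOL6a cell held a median of 3140 UMIs (unique molecular identifiers, each a counted RNA molecule) in dorsal and 3014 in ventral cells, with extremes of 1931 and 7549 and of 1991 and 9253. The MOL6b medians were 2867 and 3028, those of MOL4-5/6 were 2919 and 2865, and those of all cells were 3340 and 3307. Only 1 barcode occurred in both libraries and 0 of its cells were MOL6a. Levels are given as CPM, the UMIs of a gene summed over the cells of a label in 1 library, as a share of all UMIs of those cells scaled to 1000000. A CPM value is a share of the RNA captured and does not say how much RNA a cell held.

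The study detected MOL classes in tissue with probes against short stretches of their marker transcripts, and the target sequences of Ptgds are shown because this gene marks MOL6a. The Ptgds gene lies on the minus strand at chr2:25466709-25470046 of GRCm38, and its transcript Ptgds-201 has 7 exons and a coding length of 567 bases. Of the 5 targets, 3 lie wholly inside the coding sequence, at chr2:25469621-25469660 in exon 1, chr2:25469044-25469083 in exon 2 and chr2:25468105-25468144 in exon 4. One target each is shown for Car2 (chr3:14887971-14888010, plus strand, exon 2 of 7) and Grm3 (chr5:9570078-9570117, minus strand, exon 3 of 6), the other MOL5/6 probes. The Klk6 target (chr7:43829218-43829257, plus strand, exon 6 of 7) belongs to MOL2, whose marker MOL6a lacks. Each is written in the sense of the transcript and holds 40 bases.
Ptgds target 1: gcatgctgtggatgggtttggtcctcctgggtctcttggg
Ptgds target 2: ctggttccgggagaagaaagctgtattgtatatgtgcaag
Ptgds target 3: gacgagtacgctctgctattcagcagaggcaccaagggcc
Car2 target 2: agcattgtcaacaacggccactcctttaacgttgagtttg
Grm3 target 2: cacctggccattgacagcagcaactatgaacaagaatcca
Klk6 target 2: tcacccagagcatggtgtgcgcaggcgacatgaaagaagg

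Ptgds was the fourth most abundant transcript of MOL6a cells, at 1.87% of their UMIs. It stood at 18565 CPM (95% Poisson interval 18300 to 18833) among dorsal and 19084 CPM (18694 to 19479) among ventral cells. MOL6a ranked first of the 12 labels in both libraries. MOL6b followed with 15338 CPM (15081 to 15599) and 16452 CPM (16062 to 16848), and neither interval overlapped that of MOL6a. These intervals leave out the spread among cells, so their lack of overlap is no test of the order. Since the label came from clustering these same cells on their expression, these levels are a description of MOL6a and not a test of it.

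Below MOL6b, the TdTom+ order by summed UMIs ran from MFOL1 (11203 CPM) through MOL4-5/6 (10003 CPM) and MOL1 (9356 CPM) to MFOL2 (7939 CPM). The GFP+ order differed in that MOL1 (13352 CPM) stood beside MFOL1 (13310 CPM) with overlapping intervals, above MOL4-5/6 (10280 CPM) and MFOL2 (9061 CPM). The labels that contain MOL2 were lower, from 4628 CPM in MOL2/4 to 664 CPM in MOL2a of the TdTom+ library and from 2825 to 868 CPM in the GFP+ library. COP/NFOL (572 and 388 CPM) and OPCs (406 and 408 CPM) were at the low end, and their intervals overlapped. Pooled over both libraries, MOL6a held 2.77-fold the Ptgds of all other cells, a log2 ratio of 1.47 (1.45 to 1.49). Against MOL6b the pooled value was 1.19-fold, a log2 ratio of 0.26 (0.23 to 0.28).

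**Figure D1:**
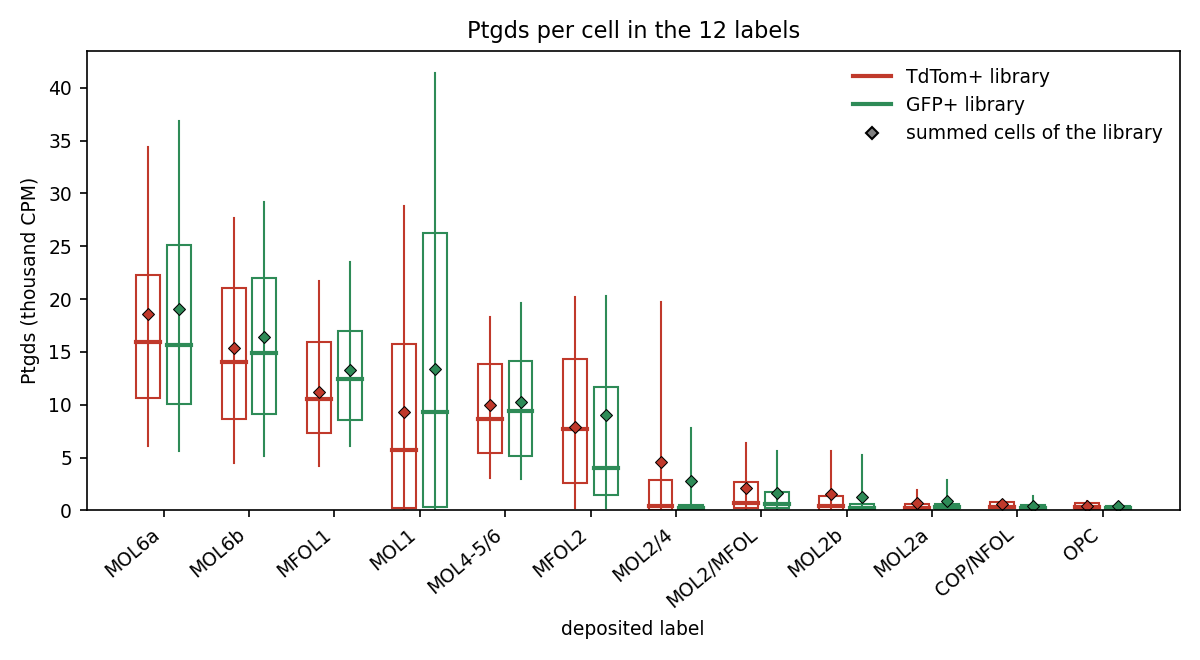
Ptgds in each of the 12 labels for the TdTom+ and GFP+ libraries. Boxes give the quartiles and the median of the CPM of single cells. Lines leave out the lowest and the highest 10% of cells, and diamonds give the CPM of the summed UMIs. By the summed UMIs MOL6a is highest in both libraries, at 18565 and 19084 CPM, and MOL6b is next, at 15338 and 16452 CPM.

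Single MOL6a cells spread far more widely than these sums. A TdTom+ MOL6a cell held between 3 and 262 Ptgds UMIs with a median of 52, and a GFP+ MOL6a cell between 2 and 232 with a median of 49. The middle range of TdTom+ cells, from the lower to the upper quartile, was 10609 to 22243 CPM in MOL6a and 8609 to 21036 CPM in MOL6b, so the cells of these labels overlapped over most of their range. Every one of the 451 cells held at least 1 Ptgds UMI. A single Ptgds UMI does not set MOL6a apart. When each cell was thinned at random to 2400 UMIs, 63.4% of TdTom+ and 50% of GFP+ OPCs also held at least 1. Whether such UMIs reflect expression in the cell was not tested. Thinning to this common depth kept 273 and 134 MOL6a cells and left out 27 and 17 shallower ones. In the thinned cells the Ptgds median was 39 UMIs in MOL6a of either library, 34 and 36 in MOL6b, and 1 and 0.5 in OPCs.

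The other MOL5/6 markers did not all peak in MOL6a. Of the 6 listed, Ptgds, Car2 and Il33 were highest there when both libraries were pooled, Grm3 and Jph4 were highest in MOL6b, and Apod in MOL2/4. Car2, a carbonic anhydrase that interconverts carbon dioxide and bicarbonate, stood at 5425 and 5439 CPM in the TdTom+ and GFP+ libraries against 4296 and 4078 CPM in MOL6b. The alarmin cytokine gene Il33 stood at 731 and 699 CPM against 670 and 730 CPM, so its order reversed between libraries. Grm3, a metabotropic glutamate receptor, was lower at 77.4 and 100 CPM against 134 and 119 CPM. Jph4, which encodes a junctophilin that tethers the endoplasmic reticulum to the plasma membrane, read 368 and 289 CPM against 462 and 395 CPM. The lipocalin gene Apod was at 1292 and 1494 CPM in MOL6a and at a pooled 8581 CPM in MOL2/4.

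The share of single MOL6a cells in which each marker was detected is given at 2400 UMIs. At this depth, Car2 was detected in all 273 and 134 cells, although it also reached 99.6% and 99.4% of MOL2b cells and 29.3% and 20% of OPCs. Il33 was detected in 76.6% and 79.1% of MOL6a cells against 14% and 11.1% of MOL2b cells and 2.44% and 3.33% of OPCs. Grm3 was detected in 16.5% (12.3 to 21.4%) of TdTom+ and 22.4% (15.6 to 30.4%) of GFP+ MOL6a cells, compared with 27.4% and 24.8% of MOL6b cells and 15.2% and 15.4% of MOL2b cells. No OPC held a Grm3 UMI, which with 41 and 30 cells allows shares of up to 7.32% and 10.0%. At least 1 UMI of Ptgds and of Car2 was thus found in each MOL6a cell, and a Grm3 UMI in few of them.

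MOL6a was compared with all other cells of the same library. A gene was counted as higher or lower when its log2 ratio passed 0.5 in the same direction in both libraries, among 2944 genes that averaged 50 CPM or more. By this rule 75 genes (2.55%) were higher in MOL6a and 85 (2.89%) were lower. The split was 53 and 92 with median of ratios scaling. With totals that leave out Malat1, mitochondrial and ribosomal protein genes it was 70 and 120, of 3512 genes tested. The median log2 ratio over all genes tested was 0.02 for TdTom+ and 0.04 for GFP+ cells. The other cells include every other label, so a value here depends on the mixture of labels captured.

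The 10 genes with the highest ratios, in the library with the smaller one, began with Ptgds. Next came Apoe, the apolipoprotein that carries cholesterol, with 2660 and 2866 CPM in MOL6a against 997 and 1099 CPM elsewhere, log2 ratios of 1.41 and 1.38. Among single labels Apoe was higher still in OPCs, with a pooled 3029 CPM. Il33 had log2 ratios of 1.31 and 1.36, with 294 and 272 CPM in the other cells. Cd63, a tetraspanin of late endosomes and exosomes, stood at 498 and 536 CPM against 206 and 201 CPM (1.27 and 1.41). Gstp1, a glutathione transferase that conjugates reactive compounds, stood at 1097 and 749 CPM against 461 and 285 CPM (1.25 and 1.39). Mice carry near-identical copies of Gstp1, and how reads were split between them is uncertain.

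Opalin, a myelin membrane protein, read 1673 and 1655 CPM against 802 and 722 CPM (1.06 and 1.19), and its pooled level was higher in MFOL1 (1809 CPM) than in MOL6a (1667 CPM). The amino acid metabolism gene Gpt was much scarcer, at 81.4 and 75.3 CPM against 37.7 and 33.8 CPM. It reached the 50 CPM mean through MOL6a, so its direction was given by the filter. The heme-binding protein gene Hebp1 (1.42 and 1.03), the tetraspanin gene Cd9 (1.03 and 1.05) and the secreted protease gene Htra1 (1.01 and 1.11) completed the 10. Only 5 of these 10 genes were highest in MOL6a among single labels, namely Ptgds, Il33, Cd63, Gstp1 and Gpt.

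The lowest ratios belonged to MOL2 and OPC genes. Klk6, a secreted serine protease and the marker of MOL2, had 8 UMIs in all 300 TdTom+ MOL6a cells and 1 in the 151 GFP+ cells, or 7.94 and 2.09 CPM against 142 and 412 CPM elsewhere. In the thinned cells it was found in 5 of 273 and 0 of 134, and the 0 allows a share of up to 2.24%. Hopx, a homeodomain protein that does not bind DNA, had 5 and 1 UMIs. S100b, a calcium-binding protein, was at 43.7 and 66.9 CPM against 703 and 1120 CPM, log2 ratios of -3.98 and -4.04. All 6 MOL2 markers had ratios below -0.5, but Klk6, Hopx, Anxa5 and Mgst3 were under 50 CPM in MOL6a and entered only through the other cells, so their direction was given by the filter. Their 6 genes together never gave more than 4 UMIs in a thinned MOL6a cell, and 58.6% and 55.2% of cells held 0. The other labels of the class were alike in this. Pooled over libraries, Klk6 stood at 6.06 CPM in MOL6a, 7.71 in MOL6b and 8.37 in MOL4-5/6. In the same order S100b stood at 51.2, 67.1 and 57.6 CPM, and Mgst3, higher in MOL6a, at 32.3, 19.3 and 16.7 CPM. Against each of these 2 labels, 2 MOL2 markers were tested and 0 passed.

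The 6 OPC markers were near 0 in MOL6a, with 2 and 1 UMIs of the receptor phosphatase gene Ptprz1 and 8 and 5 UMIs of the proteoglycan gene Cspg5. These 2 genes reached the 50 CPM mean only through the other cells, so they had to come out lower, and the remaining 4 did not reach it. Enpp6, a choline phosphodiesterase of newly formed OLs, was at 27.8 and 27.2 CPM against 110 and 123 CPM. Cd59a, which protects cells from complement, read 41.7 and 62.8 CPM against 148 and 197 CPM. The log2 ratios of the calcium-binding protein gene S100a6 (-1.44 and -1.97), Scrg1 (-1.43 and -2.07) and the matrix protein gene Sparc (-1.67 and -1.39) completed the 10 lowest. Enpp6, S100a6, Scrg1 and Sparc were under 50 CPM in MOL6a and entered through the other cells, so they too had to come out lower.

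**Figure D2:**
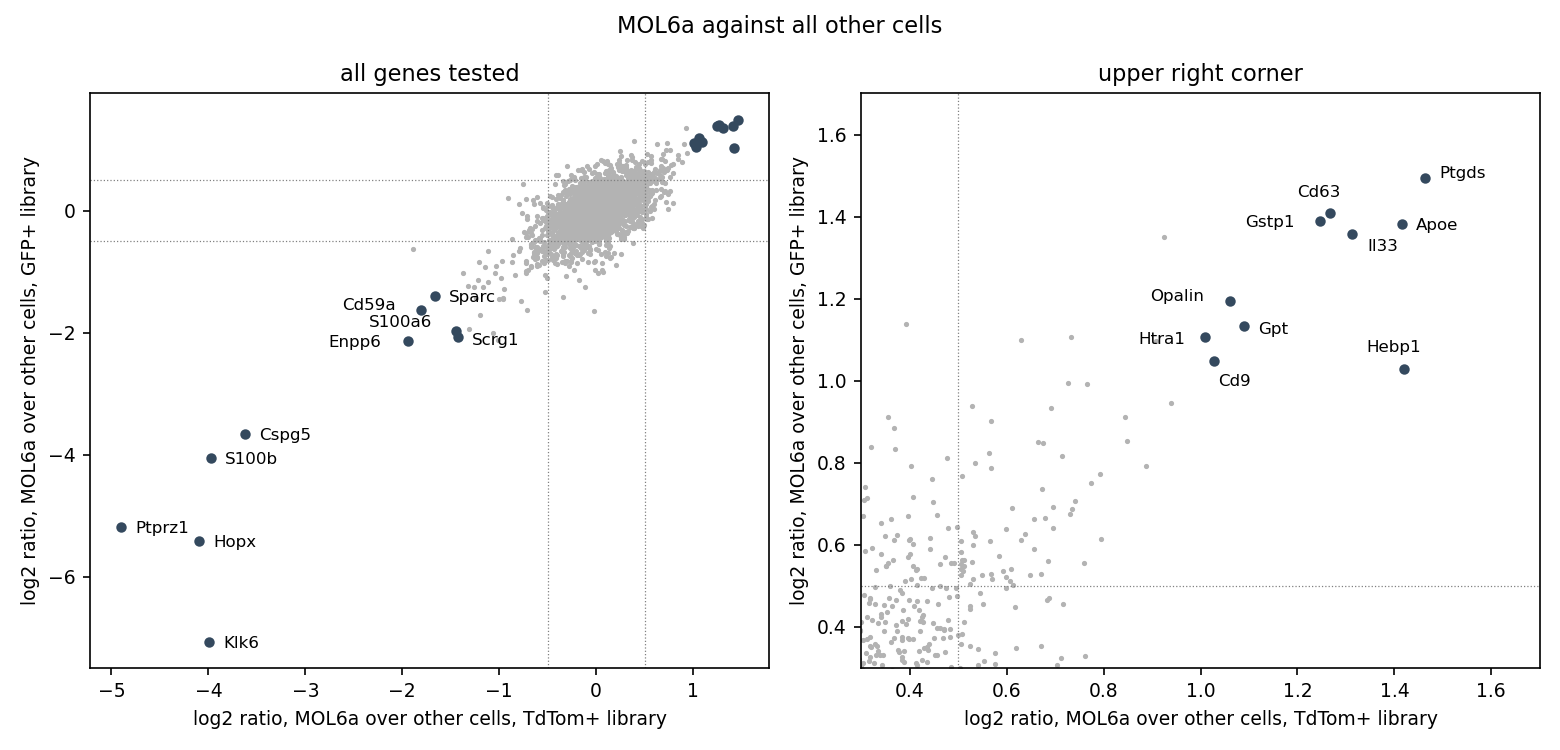
Log2 ratio of CPM in MOL6a over all other cells in the TdTom+ library (x axis) and the GFP+ library (y axis), 1 point per gene tested, with the 10 highest and 10 lowest genes named, dotted lines at 0.5 and -0.5, and the upper right corner enlarged. Klk6, Ptprz1, Hopx, S100b and Cspg5 lie far to the lower left, while the highest genes stay below 1.5 on both axes. Klk6, Ptprz1, Hopx and Cspg5 entered only through the other cells, so their direction was given by the filter.

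In 27 of the 2923 genes with at least 50 CPM in MOL6a, this label was the highest of all 12 in both libraries. The margin over the next label was small. It was largest for Cd63, at 1.57 times the level of OPCs, and for Gstp1, at 1.34 times that of MOL4-5/6, while Ptgds reached 1.19 times MOL6b and Car2 1.13 times MOL2/MFOL. The small heat shock protein gene Cryab (6933 CPM), the septin gene Sept4 (2605 CPM) and the chaperone gene Hsp90aa1 (1415 CPM) were also among the 27. The smallest margin was 1.00 times, for Csrp1, so that none of the 27 was restricted to MOL6a.

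The fuller prostaglandin pathway could be examined only in small part. Of 20 prostaglandin pathway genes listed, 12 were in the deposited matrix and 3 reached the 50 CPM mean, of which Ptgds was the sole one past the threshold against other cells. Ptges3, a co-chaperone also described as a prostaglandin E synthase, was at 262 and 268 CPM against 251 and 231 CPM. The phospholipase gene Pla2g16 was at 383 and 412 CPM against 378 and 342 CPM. Ptgs1, which encodes the cyclooxygenase that makes the substrate of prostaglandin synthases, had no UMI in MOL6a, and Hpgds, the other prostaglandin D synthase gene, stood at a pooled 1.35 CPM. Of the 6 lipocalin and lipid carrier genes tested, Ptgds and Apoe were higher and 0 were lower, beside 2.55% and 2.89% of all genes tested.

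Few myelin genes passed against the other cells, at about the share of all genes tested (2.55% higher and 2.89% lower). Of 18 structural myelin genes tested, Cd9 was higher and Gjb1, the gap junction protein connexin 32, was lower with log2 ratios of -0.55 and -0.58. Mbp, myelin basic protein, stood at 10401 and 10928 CPM in MOL6a against 11310 and 11162 CPM. Of the 14 fatty acid and galactolipid synthesis genes and the 6 cholesterol genes tested, 0 passed in either direction. Hapln2, a link protein of the node of Ranvier, was the one lower gene of 10 in the node and paranode list, at 260 and 222 CPM against 502 and 544 CPM. Of 16 tubulin and cytoskeleton genes Sept4 was higher and 4 were lower, namely Tubb3, Tppp3, Marcksl1 and Anln. Ldhb, the lactate dehydrogenase subunit, was lower at 40.7 and 35.6 CPM against 94.7 and 118 CPM. Ldhb and Tubb3 (a pooled 38.4 CPM) were under 50 CPM in MOL6a, so their direction was given by the filter.

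MOL6a and MOL6b were set beside each other because their names and their Ptgds levels place them together. Here 212 of 2886 genes tested (7.35%) were higher in MOL6a and 39 (1.35%) were lower. The median log2 ratio over all genes was 0.01 and 0.03. None of the 6 MOL5/6 markers passed in both libraries, so genes outside the class markers made up the counts.

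The highest of these was Fos, a transcription factor induced within minutes of stimulation, with 317 and 337 CPM in MOL6a against 58.8 and 26.7 CPM in MOL6b (log2 ratios 2.41 and 3.61). Its partner Junb read 161 and 186 CPM against 40.7 and 21.8 CPM (1.96 and 3.04). The inducible heat shock protein gene Hspa1a read 186 and 157 CPM against 52.0 and 41.2 CPM (1.82 and 1.90), with the caveat that mice carry a near-identical copy of it. Itm2b, a membrane protein cleaved in the secretory pathway, stood at 1589 and 1607 CPM against 518 and 509 CPM (1.62 and 1.66). Ubb, a ubiquitin gene, stood at 1891 and 1636 CPM against 677 and 584 CPM (1.48 and 1.48). Itm2b and Ubb were abundant, with at least 210 UMIs in each label of each library, and their lowest interval bound was 1.27.

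The gene furthest in the other direction was Hcn2, a channel opened by hyperpolarisation that carries sodium and potassium ions. It read 97.3 and 100 CPM in MOL6a against 337 and 378 CPM in MOL6b, log2 ratios of -1.78 and -1.90. The clathrin adaptor gene Ap2a2 (-0.87 and -1.10), the microtubule-associated protein gene Eml1 (-0.81 and -1.09), the exchange factor gene Dock9 (-0.79 and -0.90) and the imprinted zinc finger gene Peg3 (-0.79 and -0.88) were next, each with at most 121 UMIs in any one label and library. Ap2a2 and Peg3 were under 50 CPM in MOL6a, so their direction was given by the filter. Kcnj10, the inward rectifier potassium channel Kir4.1, was lower as well, at 233 and 293 CPM against 402 and 497 CPM (-0.78 and -0.76).

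By gene list, the 10 immediate early genes that mark MOL1 had a median log2 ratio against MOL6b of 1.55 and 1.38, with 8 above 0 in both libraries. Arc went the other way (-0.24 and -0.86), and Egr2, with at most 4 UMIs, differed in sign between libraries. The 4 that reached the 50 CPM mean were higher, namely Fos, Junb, Egr1 (64.5 and 92.0 CPM against 23.7 and 41.2 CPM) and Jun (467 and 458 CPM against 267 and 221 CPM). Fos, Junb and Egr1 reached that mean through MOL6a, so that count of 4 is no support. Of 7 heat shock and chaperone genes tested, Hspa1a, Hsp90aa1 (1.12 and 1.13) and Hsp90ab1 (0.83 and 0.74) were higher, and 0 were lower. Over all genes tested against MOL6b the shares were 7.35% higher and 1.35% lower. Hspa1a also reached the mean through MOL6a, so its direction was given by the filter. Of 18 structural myelin genes 4 were higher and 0 lower. These were the tight junction gene Cldn11 (4762 and 4579 CPM against 2158 and 2039 CPM), Cd9, the myelin phosphodiesterase gene Cnp (0.72 and 0.67) and the lipid raft protein gene Mal (0.57 and 0.68). Mbp differed by -0.12 and -0.13.

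Of 15 tubulin and cytoskeleton genes tested against MOL6b, the tubulin gene Tuba1a, which has near-identical copies, the tubulin-binding protein gene Stmn1 and the tubulin deacetylase gene Sirt2 were higher. The share of all genes tested that was higher was 7.35%. In the lipid lists, Fdps of cholesterol synthesis (1 of 5 tested), the ceramide synthase gene Cers2 (1 of 14) and Apoe (1 of 6) were higher. Fdps, at a pooled 45.5 CPM in MOL6b, entered through MOL6a, so its direction was given by the filter. Gstp1 was the one higher glutathione transferase gene of 5, at 1.10 and 1.00 on the log2 scale. None of the 10 lineage transcription factors, 10 node and paranode genes or 3 iron genes passed in both libraries. Trf, transferrin, was close to the threshold with 0.51 and 0.49, and Fth1, the ferritin heavy chain gene, was at -0.28 and -0.31.

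The RNA make-up of the labels differed beside these genes. Mitochondrial transcripts were 1.39% and 1.40% of UMIs in MOL6a, 1.75% and 1.79% in MOL6b and 1.48% and 1.52% in MOL4-5/6. Ribosomal protein transcripts were 7.56% and 7.43%, 8.17% and 8.45%, and 8.13% and 8.32% in the same order. The nuclear RNA Malat1 was 12.7% and 13.3%, 15.5% and 15%, and 13.8% and 13.9%. Genes higher in MOL6a than in MOL6b spanned a median of 15.9 kb of genome and genes lower spanned 52.5 kb, with 22.7 kb for all genes tested. The part of these measures in the differences between labels was not tested. With totals that leave out these 3 kinds of transcript, 3475 genes reached the 50 CPM mean. The count against MOL6b was then 182 higher, of which 158 were among the 212, and 102 lower.

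**Figure D3:**
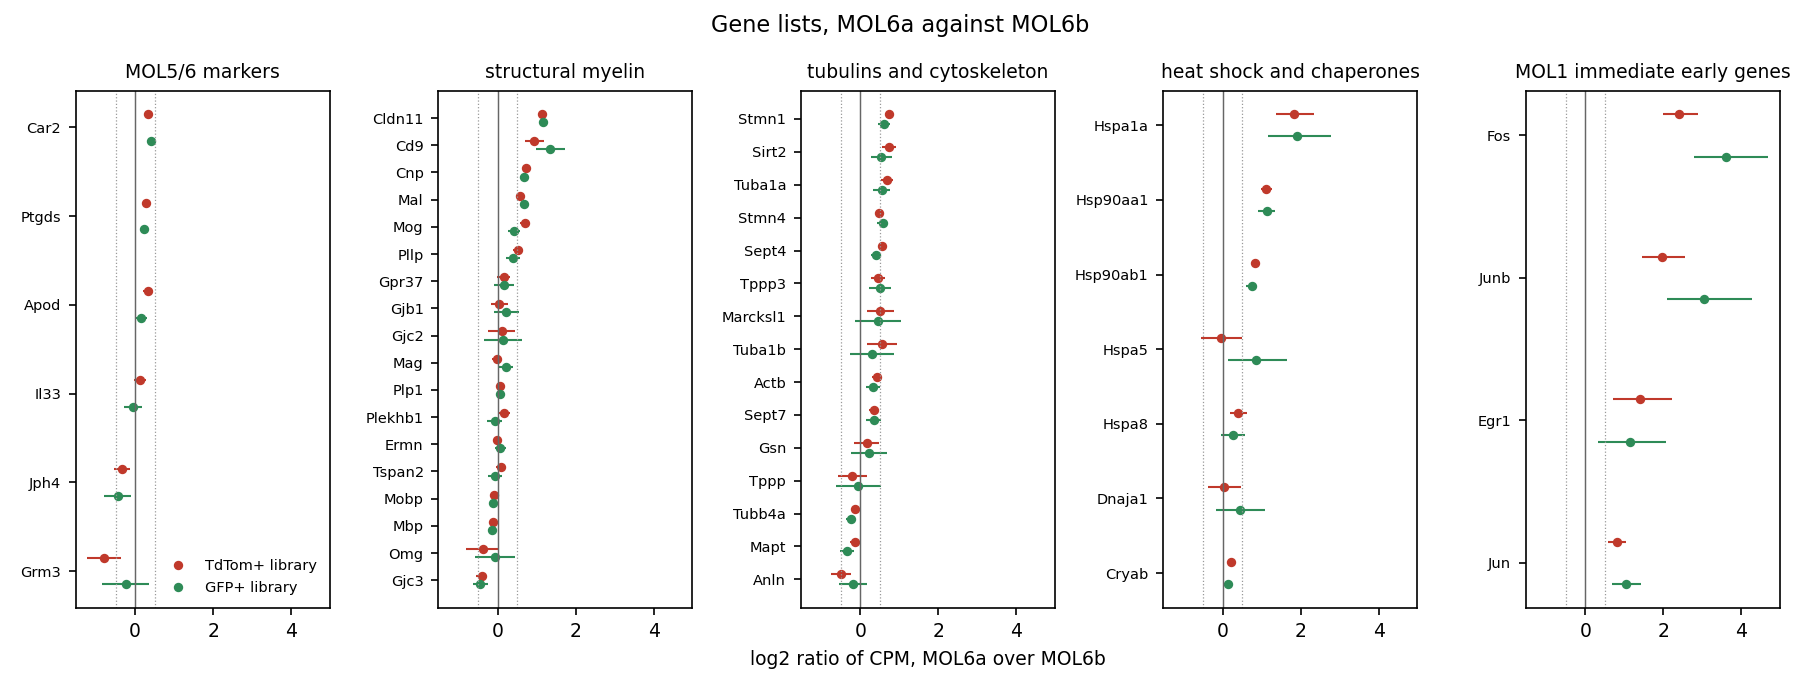
Log2 ratio of CPM in MOL6a over MOL6b for the tested genes of each list, 1 point per gene and library. The immediate early genes lie highest, with Fos at 2.41 and 3.61, while most genes of the structural myelin list lie within 0.5 of 0.

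Against MOL4-5/6 fewer genes differed, and the heads of the lists were again immediate early genes. Of 2900 genes tested, 92 (3.17%) were higher in MOL6a and 15 (0.517%) were lower, and the median over all genes was -0.02 and -0.01. With the reduced totals the split was 100 and 46, of 3484 genes tested. This comparison shares the MOL6a cells with that against MOL6b, so the repeated genes are not separate evidence. Fos (2.25 and 2.38), Junb (1.65 and 2.36), Egr1 (1.13 and 1.5), the secreted protease gene Adamts1 (1.04 and 1.80) and Tecr, an enzyme of very long chain fatty acid synthesis (1.03 and 1.38), were highest. Junb, Egr1 and Adamts1 averaged under 50 CPM in MOL4-5/6 and entered through MOL6a, so their direction was given by the filter. Ptgds passed here, with log2 ratios of 0.89 in both libraries, unlike against MOL6b, where they were 0.28 and 0.21. Apoe followed with 1.05 and 0.99.

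Of the 10 immediate early genes 9 were above 0 in both libraries against MOL4-5/6, with a median of 1.75 in each, and Arc differed in sign. Of 8 heat shock genes tested 4 were higher (Hspa1a, Hspa8, Hsp90ab1 and Dnajb1), where 3.17% of all genes tested were higher. In the myelin list Cldn11 and Cd9 were higher of 18, and Fdps, Cers2 and Lgi3 were single genes of their lists. Dnajb1 and Fdps, at a pooled 34.4 and 40.9 CPM in MOL4-5/6, entered through MOL6a, so their direction was given by the filter. The lowest were Strn (-0.77 and -0.95), Synrg (-0.82 and -0.66), Cd59a (-0.91 and -0.65), Ufm1 (-0.64 and -1.01) and Ap2a2 (-0.61 and -0.68). Each had at most 80 UMIs in a label and library, and the GFP+ intervals of Synrg, Cd59a and Ap2a2 included 0. Strn and Ap2a2 were under 50 CPM in MOL6a, so their direction was given by the filter.

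Against all other cells together the immediate early genes did not differ in the same way. None of the 5 tested passed in both libraries, and Fos was at 317 and 337 CPM in MOL6a against 312 and 305 CPM. Each of the 10 listed genes was highest in MOL1, where Fos reached a pooled 2122 CPM. For Fos, MOL6a therefore lay between MOL1 and its neighbours of the MOL5/6 class. OPCs (a pooled 855 CPM) and MOL2/MFOL (415 CPM) also stood above MOL6a (323 CPM), so this level was not particular to MOL6a.

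The immediate early level was also examined cell by cell, with the UMIs of all 10 genes summed in each thinned cell. MOL6a cells held a median of 2 such UMIs in both libraries, MOL6b cells 1 and 0, MOL4-5/6 cells 0.5 and 1, and MOL1 cells 16 and 18. Cells with 5 or more were 57 of 273 (20.9%) and 35 of 134 (26.1%) in MOL6a, 4.37% and 4.96% in MOL6b, 2.23% and 4.94% in MOL4-5/6, and 96.3% and 91.7% in MOL1. Outside these labels they were 41.5% and 40% in OPCs, 39.3% and 29.5% in MOL2/MFOL, and 22.5% and 18.8% in MFOL2. At the other end, 21.6% and 23.9% of MOL6a cells held 0, against 43.7% and 51.2% of MOL6b cells. The higher level of MOL6a was thus spread over many cells at low counts, with a smaller set that reached at most 20 and 21 UMIs.

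Heat shock and chaperone genes, summed over 11 genes without Cryab, had a median of 11 and 10.5 UMIs in MOL6a cells, 7 and 6 in MOL6b, 7 and 7 in MOL4-5/6, and 12 and 12 in MOL1. The medians were 10 and 11 in MOL2/MFOL and 9 and 8.5 in MOL2/4, so this level was not particular to MOL6a. Across MOL6a cells the immediate early sum and the heat shock sum had a Pearson r of 0.22 and 0.10, and the immediate early sum and Ptgds of -0.04 and 0.08, given as a description of sparse counts. Immediate early and heat shock genes are known to respond also to the enzymatic dissociation of tissue. All labels of a library went through the same dissociation, and its part in these levels was not tested.

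When MOL6a and MOL6b were compared in cells with no immediate early UMI (59 and 32 against 110 and 62 cells), 252 of 2894 genes tested were higher and 115 lower. These cells were fewer than in the full comparison, and the part of counting error in the counts was not tested. Of the 212 genes higher in all cells 111 were among the 252, and of the 39 lower 14 were among the 115. In all thinned cells 2863 genes were tested. The counts were 221 and 54, of which 166 and 25 were shared with the 212 and 39, so thinning alone removed part of them. In the cells with no immediate early UMI, Itm2b remained at 1.21 and 1.36, Hspa1a at 2.26 and 1.60, Hcn2 at -1.63 and -1.92, and Ptgds at 0.47 and 0.23. This comparison was chosen after the values were seen.

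**Figure D4:**
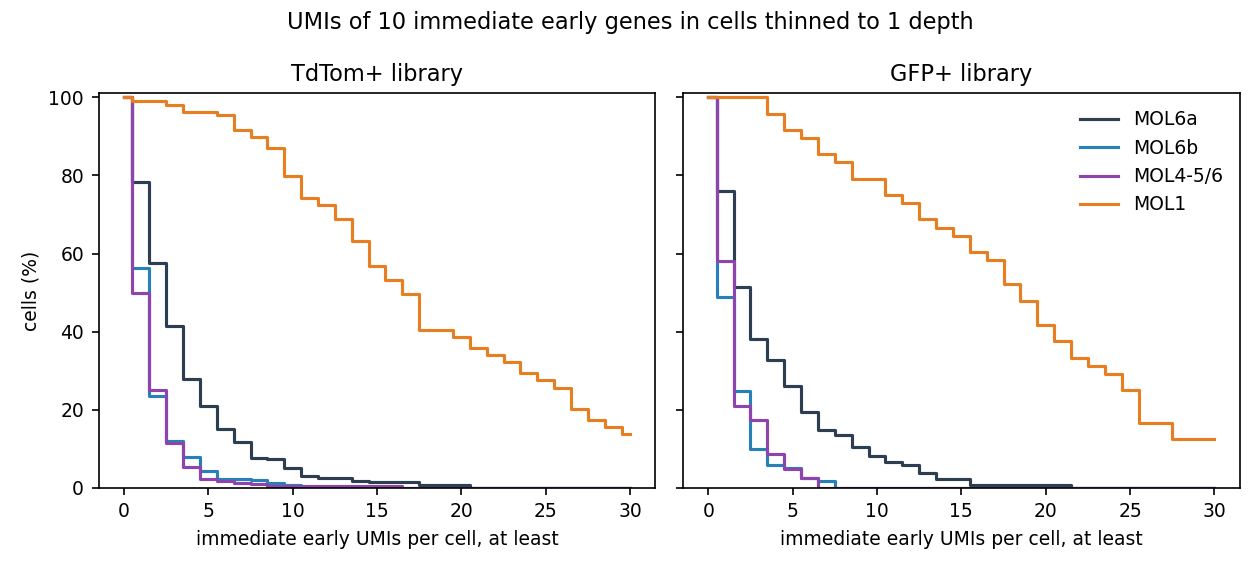
Share of cells (%) with at least the number of immediate early gene UMIs on the x axis, summed over 10 genes in cells thinned to 2400 UMIs, for MOL6a, MOL6b, MOL4-5/6 and MOL1 in each library. At 5 UMIs the MOL6a curves pass through 20.9% and 26.1%, between those of MOL1 at 96.3% and 91.7% and those of MOL6b at 4.37% and 4.96%.

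The variation among MOL6a cells was then measured gene by gene. Across thinned cells, 732 genes of at least 200 CPM were ranked by their coefficient of variation (CV) beyond that of counting, by the smaller of the 2 libraries. Fos (1.51 and 1.60), Jun (1.15 and 0.93), Nap1l5 (0.75 and 0.80), the selenium carrier gene Sepp1 (0.92 and 0.74) and the fatty acid binding protein gene Fabp5 (0.85 and 0.71) led. Ptgds ranked 8 with 0.64 and 0.69, and Apoe had 0.66 and 0.61. Mbp was far more even, with CVs of 0.18 and 0.17.

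The gene that followed Ptgds most closely from cell to cell was Apoe, with a Pearson r of 0.34 over 273 TdTom+ cells and 0.48 over 134 GFP+ cells. Pex5l, Pllp, Psap and mt-Nd1 were next, from 0.16 to 0.22 among TdTom+ cells and from 0.20 to 0.35 among GFP+ cells. Fth1 was the most negative, at -0.33 and -0.44, followed by Tppp3, Rps27, Sepp1 and Eif1. The median size of r over all 732 genes was 0.05 and 0.07. These cells share a library and a fixed total of 2400 UMIs, in which an abundant gene displaces others, and the values are descriptive.

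How far the label holds from library to library was examined by giving each cell the label whose mean profile in the other library made its UMIs most likely, over 3141 genes. By this rule 213 of 300 TdTom+ MOL6a cells (71.0%) and 98 of 151 GFP+ cells (64.9%) were again MOL6a. MOL4-5/6 took 42 and 25 of the rest, and MOL6b 18 and 9. Of the MOL1 cells, 25 of 111 and 15 of 50 were assigned to MOL6a. Both libraries entered the clustering that gave the labels, so this is a measure of how separable the label is and not independent support for it.

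Over the same genes, the MOL6a profile correlated most with MOL4-5/6 (r of 0.97 and 0.95), then MOL6b (0.96 and 0.94) and, among the remaining labels, MOL1 (0.95) of the TdTom+ and MFOL1 (0.93) of the GFP+ library. The MOL6a profiles of the 2 libraries had an r of 0.98. These values are across genes, which are not independent, and smaller labels have noisier profiles.

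No MOL6a cell held UMIs of 3 markers of the astrocyte, microglial, endothelial or neuronal lists. Microglial markers gave 1 and 0 UMIs in all MOL6a cells of a library, endothelial markers 3 and 1, and neuronal markers 4 and 0. Astrocyte markers summed to 112 and 134 CPM in MOL6a against 170 and 161 CPM in other cells, with Aqp4 and Gja1 at 0. The pericyte and leptomeningeal lists each had 1 gene in the matrix, at 0. Of the ependymal list 1 gene was in the matrix, Foxj1, at 50.6 and 56.5 CPM in MOL6a against 42.3 and 35.7 CPM. The red blood cell list had 2 genes in the matrix, with 15 and 7 UMIs.

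The comparison the sort was made for, between dorsal and ventral origin, was carried out inside MOL6a. A gene was counted when its log2 ratio of TdTom+ over GFP+ passed 0.5 and its exact 95% interval excluded 0. Of 2943 genes tested, 49 (1.66%) were higher in the TdTom+ cells and 50 (1.7%) were lower, while 93.3% lay within 0.5. The interval excluded 0 in 6.12% of genes at any size. With 1 library per origin, origin, sort and library cannot be told apart.

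Ptgds was at 18565 CPM in dorsal and 19084 CPM in ventral MOL6a cells, a log2 difference of -0.04 (-0.08 to -0.004). Car2 differed by -0.004 (-0.07 to 0.06) and Il33 by 0.07 (-0.12 to 0.26). Grm3 was at 77.4 and 100 CPM, a difference of -0.37 (-0.91 to 0.17). Mbp differed by -0.07. Of these genes Grm3 was the least precisely measured, and its interval reached past 0.5 in size.

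Of the 261 genes with at least 500 CPM, 2 passed. Sox10, the transcription factor of the OL lineage, stood at 1016 CPM in dorsal and 607 CPM in ventral MOL6a cells, a log2 difference of 0.74 (0.55 to 0.94). The same difference was 0.57 in MOL6b, 0.63 in MOL4-5/6 and 0.66 in all cells outside MOL6a. Gstp1 stood at 1097 and 749 CPM, a difference of 0.55 (0.38 to 0.73), against 0.45 in MOL6b and 0.69 outside MOL6a. Both differences were thus found outside MOL6a as well. Polr2f, an RNA polymerase subunit gene, went the other way with 171 and 274 CPM, -0.68 in MOL6a, -0.70 in MOL6b and -0.56 in all other cells. Polr2f was singled out after its values were seen, for it lies beside Sox10 on the opposite strand of chromosome 15 without overlapping it. The reporter of these mice is named for Sox10, and its part in these values was not tested.

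Most of the 99 genes were scarce, with a median of 114 UMIs over both libraries against 157 for all genes tested. The extremes in the dorsal direction were Ddx46 (73 and 14 UMIs, 1.28), Nudt3, Atat1, Slc39a7 and Lrrc8d, from 1.02 to 1.04. In the ventral direction they were Plin3 (31 and 39 UMIs, -1.38), Zfp462, Setd7, Tm9sf4 and Klhl4, from -1.23 to -1.02. All of these extremes, in either direction, were under 50 CPM in the library where they were lower. They entered through the other library, so their direction was given by the filter. The RNA helicase gene Ddx46 differed by -0.81 in MOL6b, in the opposite direction. The lipid droplet gene Plin3 differed by -0.05 there. Of the 99 genes 7 passed 0.5 in the same direction in MOL6b. The share of all genes tested that passed 0.5 in MOL6b is not given here, so this count is no measure of agreement between the labels. Of 121 list genes tested 5 passed, which were Sox10, Gstp1, Tmem141 (0.74), Omg (-0.76) and Hspa5 (-0.63). This was near the share of all genes tested, of which 1.66% were higher and 1.7% lower in TdTom+ cells.

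**Figure D5:**
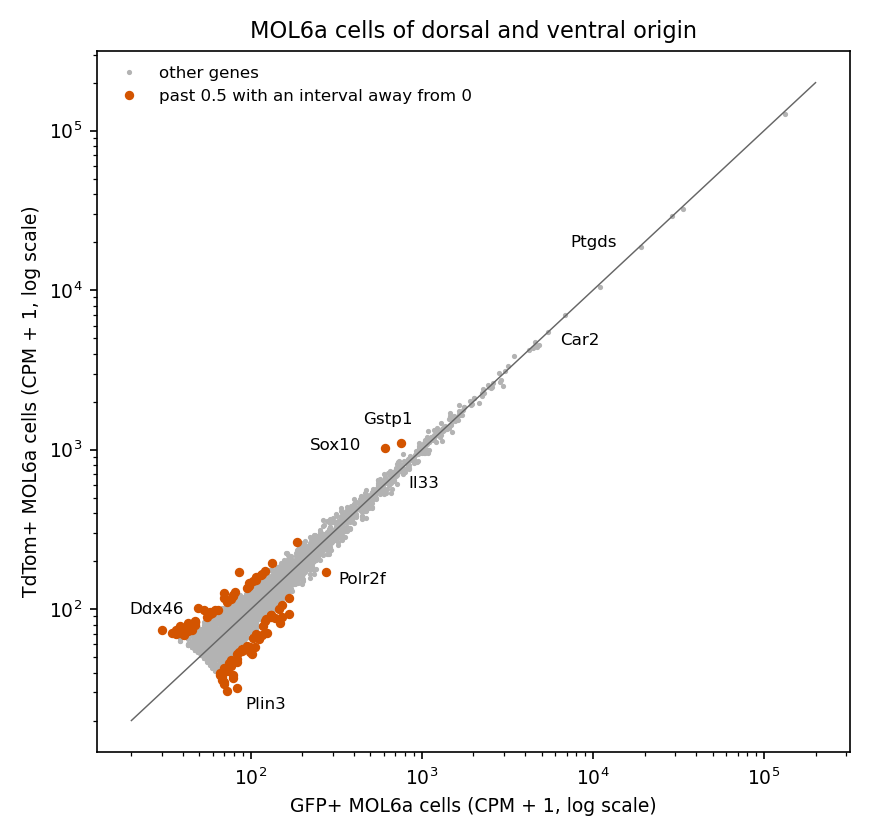
CPM + 1 in GFP+ (x axis) and TdTom+ (y axis) MOL6a cells on log scales, 1 point per gene tested, with genes past a log2 difference of 0.5 and an interval away from 0 in orange and a line of equality. Ptgds and Car2 lie on the line, Sox10 and Gstp1 stand off it among abundant genes, and the other orange points lie below 500 CPM.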

How the data were processed

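Single-cell RNA-seq of sorted corpus callosum cells (10x Genomics 3′ v2) was analysed for 2 of the 5 samples of the series. The submitters' processing notes name Cell Ranger 2.1.1 and mm10. The authors filtered cells, clustered them with Seurat and deposited a table of labels and an expression matrix of 11733 genes and 2853 cells. The deposited values are a signal, each UMI count divided by a factor of its cell, and not raw counts as first assumed. Dividing by the smallest positive value of a cell returned whole UMI counts for 100% of values (within 0.01), and the medians per MOL6a cell, 3140 and 3014, stood beside 3155 and 3029 in the deposited cell table. The deposited labels were used as they stand, and the remaining 35 columns of that table were not used. No doublet caller was run. The 3 other samples were not analysed here.

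UMIs were summed per label and library, which held 7129294 (TdTom+) and 3584940 (GFP+) UMIs, and scaled to CPM. Log2 ratios used a pseudocount of 1 CPM and genes that averaged 50 CPM or more over both sides. A gene under 50 CPM on 1 side entered through the other side, which fixed its direction. Because there was 1 library per origin and the labels came from the same cells, no p-value was computed. Intervals are exact at 95% (Poisson, Clopper-Pearson or conditional on the summed count). For shares of cells, each cell was thinned to 2400 UMIs, the 10th percentile of depth rounded down, with a fixed seed. A count of 0 was given a limit of 3 cells. For assignment, each label profile was mixed with a share of 0.2 of the mean profile.

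Named genes were the members of the gene lists, the 10 highest and 10 lowest against all other cells, the 5 highest and 5 lowest against MOL6b, against MOL4-5/6 and between origins, the 5 highest and lowest in correlation with Ptgds, and the 5 most variable. Genes were ranked by the smaller of the 2 libraries' values. MOL6a and the gene lists were chosen with earlier results of these data known. Target sequences came from the study's probe list and were placed on GRCm38 with GENCODE vM21. The scripts were tested on simulated data and used matplotlib 3.10.9, scipy 1.17.1, pandas 2.3.3 and numpy 2.4.6 under Python 3.11.15. Alternatives covered the scaling, depth, pseudocount, filters, cell limits, labels and library.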

Additional observations from a re-analysis of the deposited data

How the results depend on the processing

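The Ptgds ratios stayed above 0 under the alternatives run, and 43 main values or counts stayed within the limits set for a shift while 21 moved. The share of MOL6a was 18.7% of the mature labels alone. The log2 ratio of Ptgds against all other cells was 1.31 by the mean of each cell's CPM, 1.39 in thinned cells, 1.44 with median of ratios scaling, 1.75 with labels assigned by the other library, 1.49 in the GFP+ library alone and 1.45 with totals that leave out Malat1, mitochondrial and ribosomal protein genes. Against MOL6b it was 0.30 in thinned cells, 0.35 with assigned labels, 0.21 in the GFP+ library alone and 0.19 with those totals. Without a filter on low genes the counts were 268 higher and 1661 lower than in other cells, 1398 different from MOL6b, 1206 from MOL4-5/6 and 309 between origins. With a mean of at least 200 CPM they were 32, 18, 68, 27 and 4. The balance of higher to lower genes against other cells shifted to 53 and 92 with median of ratios scaling and to 70 and 120 with the reduced totals, which also gave 182 and 102 against MOL6b and 100 and 46 against MOL4-5/6. Under the reduced totals more genes reached the 50 CPM mean, at 3512, 3475 and 3484 in these comparisons, so the gene sets differ from the main ones. With assigned labels the balance was 98 and 32 against MOL4-5/6, and 54 of the 92 higher and 4 of the 15 lower genes remained. The reduced totals and the cells without immediate early UMIs were chosen after seeing the data. Of 320 values of named genes under alternatives, 3 no longer passed 0.5, all with assigned labels, which were Ap2a2 in 2 comparisons and Synrg in 1, whose sign then differed between libraries. In the GFP+ library alone 2 of the 6 MOL5/6 markers were highest in MOL6a. The cause of these shifts was not tested. No paired analysis was possible because each origin had a single library, and for the same reason no replicate could be left out. At the depth of MOL6a a gene at 50 CPM rests on few UMIs, so differences of scarce genes between origins are the least certain.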
